A study of Homo sapiens with 18 samples.

Results

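Polysome RNA and total RNA of human HEK293T cells that expressed YTHDF2-ADAR were compared gene by gene, in 3 polysome libraries against 3 total RNA libraries of the 18 in the series. YTHDF2-ADAR joins YTHDF2, a reader of N6-methyladenosine (m6A) in mRNA, to an adenosine deaminase, so that RNA near the reader acquires A-to-G changes. Both groups came from the same line, HEK293T with the YTHDF2-ADAR genotype, grown in medium with serum, given 1 µg/mL doxycycline for 24 h to induce the fusion and then 100 µg/mL cycloheximide for 10 minutes. For the polysome group, fractions of a 10 to 50% sucrose gradient that held RNA with more than 2 ribosomes were pooled, and the total RNA group was labelled as input. All 6 libraries carried the induced fusion and were treated with cycloheximide, and no uninduced or parental cells are among them. The labels do not say whether the line is 1 clone or whether replicates were separate cultures. The p-values therefore measure a spread between libraries that may be technical. It was estimated within groups over all 18 libraries of the series, so libraries of other lines enter it.

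In polysome profiling, a lysate is spun through sucrose so that RNA sediments by the ribosomes it carries, and cycloheximide holds elongating ribosomes in place. A transcript that is translated by many ribosomes is recovered in the heavy fractions, while RNA in the nucleus, in mitochondria, in free ribonucleoproteins or on a single ribosome is mostly left behind. YTHDF2 is best known for bringing the CCR4-NOT deadenylase to m6A-bearing mRNA.

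Reads counted in genes totalled 52352528, 67549159 and 47751544 in the polysome libraries, against 43291966, 58048768 and 47685817 in the total RNA libraries. Total RNA replicate 1 stood apart from its group. Its counts differed from those of replicates 2 and 3 with a chi-square of 76.2 and 57.4 per degree of freedom. Between total RNA replicates 2 and 3 the value was 6.96. Polysome replicate 3 differed from polysome replicates 1 and 2 with 39.7 and 35.7, against 16.6 between replicates 1 and 2. Of 60675 human gene rows, 26804 had enough counts to test, 15675 of them protein coding. Levels are CPM, counts per 1000000 of the TMM-scaled library total, and a gene was called at an adjusted p under 0.05. Summed over 9 HEK293T marker genes, with library totals and no scaling factors, levels were 629 to 728 CPM on polysomes and 490 to 651 CPM in total RNA, with the marker SOX11 at 1 to 7 counts per library. The 7 fibroblast markers summed to 5.84 to 8.06 CPM on polysomes and 5.81 to 6.81 CPM in total RNA with POSTN at 0 counts in all 6 libraries, and the 7 blood cell markers to 9.11 to 10.8 CPM on polysomes and 6.75 to 7.95 CPM in total RNA with CD3E and PTPRC at 0 to 2 counts. The HEK293T markers TERT and PAX2 and the fibroblast marker THY1 were lower on polysomes, with log2 fold changes of -0.71, -0.65 and -1.19. THY1 lost the call without 4 of the 6 libraries, and none of these 3 was called with library totals and no scaling factors.

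After removal of ribosomal RNA from the libraries, most polysome counts fell in protein-coding genes. The structural RNAs of the nucleus, the mitochondrion and free ribonucleoproteins took smaller shares there than in total RNA. Protein-coding genes took 90.2, 90.0 and 88.6% of counts on polysomes, against 60.4, 68.4 and 67.7% in total RNA, with the lowest share in total RNA replicate 1 and no overlap between the groups. Long noncoding RNAs took 5.51, 5.57 and 7.11% of counts on polysomes, against 19.1, 14.1 and 14.3% in total RNA. This gap came from 5 entries of the class with a mean level over 10000 CPM in total RNA, chosen after their values were seen, which took 0.579, 0.672 and 2.34% of counts on polysomes, against 15.2, 9.9 and 9.99% in total RNA. The other long noncoding RNAs took 4.93, 4.9 and 4.77% on polysomes, against 3.89, 4.24 and 4.32% in total RNA, so their summed share was higher on polysomes. Gene by gene, 811 of the 6240 long noncoding RNAs tested were lower and 88 higher. Of the 5, ENSG00000282885 spans RN7SL2, a signal recognition particle RNA gene, and both had 2107 CPM in polysome replicate 2 and 37744 CPM in total RNA replicate 2. The others, ENSG00000280614, ENSG00000280800, ENSG00000281181 and ENSG00000281383, lie on chromosome 21 near copies of the 5.8S ribosomal RNA gene. They have 923 exonic bases each, and the first 3 had 1111, 1111 and 1112 CPM in polysome replicate 2. Their levels were uneven between libraries, and ENSG00000280614 had 948, 1111 and 5717 CPM on polysomes, against 39412, 19354 and 19777 CPM in total RNA. Whether reads of these chromosome 21 entries come from ribosomal RNA was not tested. Nearly equal values of overlapping or repeated genes mean that class shares can hold a read more than once. Outside these 5 entries, protein-coding genes took 90.7% ± 0.0265 of counts on polysomes and 74.1% ± 2.51 in total RNA (SD, n = 3 each). The class of miscellaneous RNAs, which is led by the copies of the signal recognition particle RNA, took 0.717% ± 0.0267 on polysomes and 10.6% ± 0.82 in total RNA (SD, n = 3 each). Mitochondrial ribosomal RNA took 0.11% ± 0.00987 on polysomes and 2.29% ± 0.304 in total RNA (SD, n = 3 each), a mean share 20.9 times higher in total RNA. The gap was smaller for mitochondrial transfer RNAs, with 0.0871% ± 0.0127 on polysomes and 0.198% ± 0.00927 in total RNA (SD, n = 3 each). Processed pseudogenes, whose sequence resembles that of their parent mRNAs, took 0.933% ± 0.033 of counts on polysomes and 0.749% ± 0.00572 in total RNA (SD, n = 3 each). In these bulk libraries every value is a share of a library, so less of one RNA and more of the others, like fewer cells of a kind and less RNA per cell, cannot be told apart.

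**Figure D1:**
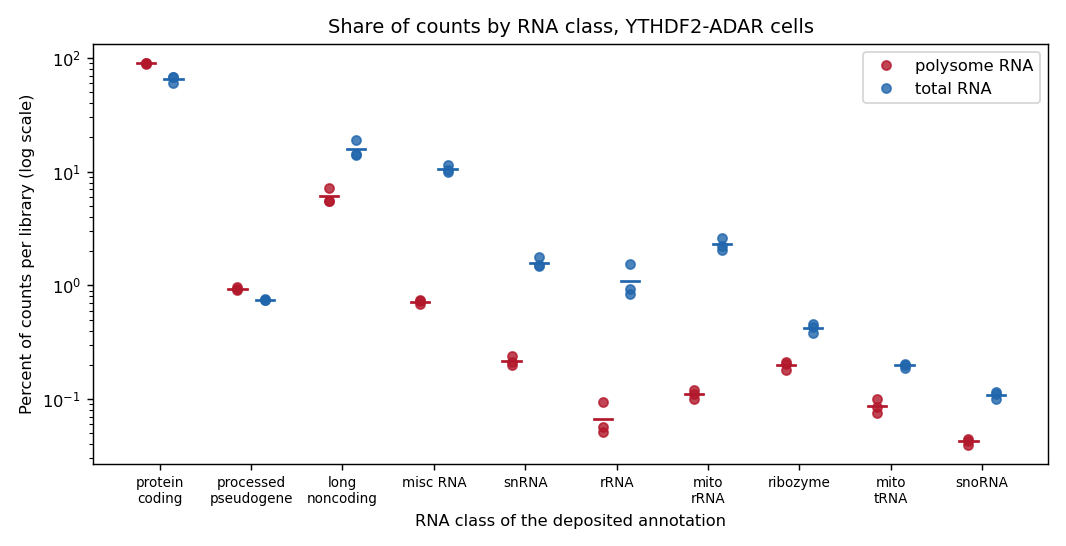
Percent of counts per library by RNA class (log scale), with points for the 3 polysome and the 3 total RNA libraries and lines at the means. Ribosomal RNA counts are what was left after its removal from the libraries. Protein-coding genes hold 88.6 to 90.2% of polysome counts and 60.4 to 68.4% of total RNA counts, and the mitochondrial ribosomal, ribosomal and miscellaneous RNAs lie lowest on polysomes relative to total RNA, with total RNA means 20.9, 16.3 and 14.8 times the polysome means.

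RN7SK, the small nuclear RNA that holds the elongation factor P-TEFb inactive (chr6:52995621-52995948 of GRCh38), had 221, 221 and 247 CPM on polysomes, against 8767, 6652 and 7709 CPM in total RNA. Its log2 fold change was -5.07 ± 0.17 (SE; adjusted p = 1.74e-11, edgeR's quasi-likelihood test with Benjamini-Hochberg adjustment). RN7SL1, an RNA of the signal recognition particle, which docks ribosomes at the endoplasmic reticulum, had 2433, 2510 and 2571 CPM on polysomes, against 46587, 35091 and 36423 CPM in total RNA. That is a log2 fold change of -3.97 ± 0.19 (SE), and its near-identical copies cannot be told apart by short reads. Both RNAs were lower in every polysome library than in any total RNA library.

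The 2 RNAs of the RNase P and RNase MRP enzymes differed in size of change. RPPH1, which processes the 5′ end of transfer RNA, fell by 4.12 ± 0.18 on the log2 scale, with 187, 132 and 147 CPM on polysomes and 3243, 2414 and 2427 CPM in total RNA. RMRP, which processes ribosomal RNA, had 1459, 1687 and 1809 CPM on polysomes, against 2713, 1825 and 2362 CPM in total RNA. Its log2 fold change was -0.48 ± 0.15 (SE; adjusted p = 0.0396), and 5 of the 6 fits that left out 1 library lost the call, with log2 fold changes from -0.62 to -0.34. The difference between the 2 RNAs was not tested.

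Among small nuclear RNAs 75 of 131 tested were lower and 0 higher, and among small nucleolar RNAs 159 of 269 were lower and 0 higher. Over all 26804 genes tested, 9.04% were lower and 6.71% higher. RNU1-1, the U1 RNA that recognises the splice donor, had a log2 fold change of -2.72 ± 0.38 (SE), and SNORD3A, the U3 RNA of ribosomal RNA processing, one of -2.47 ± 0.26. Of 19 small Cajal body RNAs 6 were lower. SCARNA7 had 2.61, 3.21 and 3.85 CPM on polysomes and 24.0, 20.5 and 22.7 CPM in total RNA, while SCARNA2, the most abundant of them, had 100, 118 and 125 CPM on polysomes and 160, 151 and 168 CPM in total RNA (adjusted p = 0.16). All 9 ribosomal RNA genes tested were lower, after removal of ribosomal RNA from the libraries.

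The mitochondrial genome encodes 13 mRNAs of the respiratory chain and the ATP synthase, which are translated inside the organelle. All 13 were lower on polysomes, with a median log2 fold change of -2.30, against 0.03 over all genes tested. MT-ND2, a subunit of complex I, was lowest with 102, 77.5 and 84.7 CPM on polysomes, against 1503, 1206 and 1225 CPM in total RNA, and a log2 fold change of -3.89 ± 0.38 (SE; adjusted p = 9.42e-06). MT-ND5, another subunit of complex I, changed least, with 2036, 1612 and 1698 CPM on polysomes, against 4576, 4247 and 4274 CPM in total RNA, and a log2 fold change of -1.29 ± 0.26 (SE). MT-ND1 lay near MT-ND2 at -3.67 and MT-CO1, the catalytic subunit of cytochrome c oxidase, near MT-ND5 at -1.45, though MT-CO1 lost its call in 5 of the 6 fits without 1 library. With 1 library left out, 11 to 13 of the 13 were called. The ribosomal RNA MT-RNR1 fell by 5.75 ± 0.58 and MT-RNR2 by 4.31 ± 0.51 on the log2 scale, with 882, 714 and 776 CPM of MT-RNR2 on polysomes and 19531, 13598 and 14005 CPM in total RNA. Of 22 mitochondrial transfer RNAs 17 were lower and 0 higher, with a median of -2.12, although the deposited counts of MT-TL2, which lies next to MT-ND5, fell by only 0.93 ± 0.30, a call lost without any 1 library. MTRNR2L12 and MTRNR2L8, nuclear copies that resemble MT-RNR2 and are annotated as protein coding, had log2 fold changes of -3.79 and -3.41, and their reads cannot be told apart from those of MT-RNR2.

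Over all genes 1799 were higher on polysomes and 2424 lower. Changes upward were small: 14 of the genes called higher and 1532 of those called lower passed a 2-fold change. Of 15675 protein-coding genes 1633 were higher (10.4%) and 749 lower (4.78%), and of 6240 long noncoding RNAs 88 were higher (1.41%) and 811 lower (13%). Polysome and total RNA libraries did not overlap for 46.9% of all genes and 51.3% of protein-coding genes. With the replicate number as a block, 4148 genes were higher (15.5%) and 4010 lower (15%), among them 3652 (23.3%) and 1589 (10.1%) protein-coding genes and 306 (4.9%) and 1267 (20.3%) long noncoding RNAs. Without total RNA replicate 2 or 3, or without polysome replicate 1 or 3, the genes higher numbered 818, 658, 869 and 809 in that order, and without total RNA replicate 3 or polysome replicate 3 the genes lower numbered 1577 and 1511. Scaling moved the balance: with library totals and no scaling factors the median of all genes was 0.40 in place of 0.03, and 87.0% of calls were higher in place of 42.6%, so every direction below is relative to the TMM-scaled median.

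**Figure D2:**
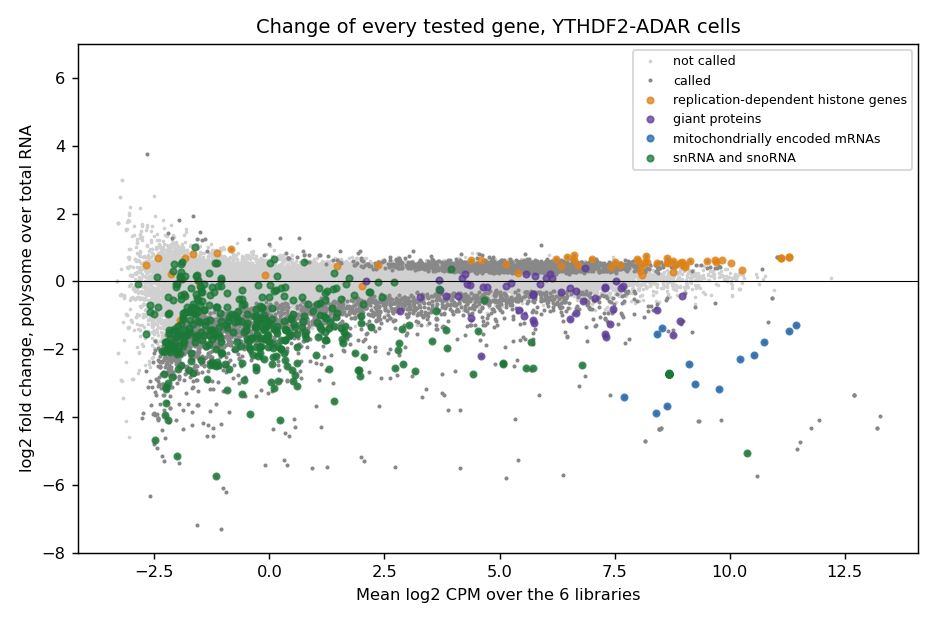
Log2 fold change of polysome over total RNA against the mean log2 CPM of the 6 libraries, 1 point per tested gene. Most histone genes lie above 0 (median 0.56, lowest -1.15), all mitochondrially encoded mRNAs lie below (median -2.30), and so do most small nuclear and nucleolar RNAs (medians -1.65 and -1.30) and most giant protein mRNAs (median -0.28, or 0.06 with library totals and no scaling factors).

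Long noncoding RNAs were chosen by whether they are known as nuclear or cytoplasmic. Of 17 tested nuclear ones 8 were lower and 0 higher, with a median of -0.39, and of 20 cytoplasmic ones 6 were lower and 0 higher, with a median of -0.35. With library totals and no scaling factors these medians were -0.04 and 0.01, so the cytoplasmic median changed its sign. RPPH1 and RMRP are among the 8, with RMRP counted under 2 gene IDs. With 1 library left out, 4 to 7 of the nuclear and 4 to 5 of the cytoplasmic ones were lower. Over all 6240 long noncoding RNAs tested 13% were lower and 1.41% higher. TERC, the telomerase RNA template, had 22.5, 19.5 and 20.6 CPM on polysomes, against 146, 110 and 129 CPM in total RNA, with a log2 fold change of -2.62 ± 0.21 (SE). FIRRE, which is tied to the nuclear matrix, fell by 1.02 ± 0.10 on the log2 scale. MALAT1, an abundant RNA of nuclear speckles, had 433, 480 and 510 CPM on polysomes, against 550, 962 and 877 CPM in total RNA, a log2 fold change of -0.75 ± 0.24 (SE; adjusted p = 0.0435) that lost its call in 5 of the 6 fits without 1 library. NEAT1, the scaffold of paraspeckles, had 19.7, 23.4 and 21 CPM on polysomes and 25.1, 29.6 and 29.3 CPM in total RNA (adjusted p = 0.475, or 0.00629 with the replicate block).

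The hosts of small nucleolar RNAs, which carry those RNAs in their introns, were uneven. SNHG5 had 33.0, 23.4 and 20.9 CPM on polysomes, against 85.2, 81.5 and 75.1 CPM in total RNA, with a log2 fold change of -1.65 ± 0.23 (SE). SNHG3 fell by 1.60 ± 0.12 and SNHG6 by 1.41 ± 0.30 on the log2 scale. By contrast, ZFAS1 had 52.1, 46.9 and 41.4 CPM on polysomes and 50.3, 48.8 and 44.7 CPM in total RNA, with log2 fold changes of -0.03 ± 0.14 for it, 0.04 ± 0.11 for DANCR and 0.03 ± 0.16 for SNHG1 (SE; none called). H19, an imprinted RNA, was lowest of the cytoplasmic list at -2.94 ± 0.55, from a level under 1 CPM in both groups. LINC00632, the precursor of the circular RNA antisense to CDR1, had 10.8, 14.6 and 13.5 CPM on polysomes, against 63.3, 73.2 and 73.2 CPM in total RNA. The CDR1 gene lies inside it on the opposite strand and had a log2 fold change of -3.29, against -2.43 for LINC00632. How the counting used strand is not stated, so reads of the pair cannot be told apart.

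Of the 88 long noncoding RNAs higher on polysomes, 83 (94.3%) share exon bases with a protein-coding gene, 73 of them with a gene on the opposite strand. Over all 6240 tested the share was 51.3%, and among the 811 lower it was 32.1%. Such pairs changed alike: MMADHC-DT by 0.57 and MMADHC by 0.60, SPCS3-AS1 by 0.58 and SPCS3 by 0.54, SIAH2-AS1 by 0.54 and SIAH2 by 0.47 on the log2 scale. With the strand setting unknown, the noncoding RNA and its partner mRNA cannot be told apart in these pairs, and MMADHC-DT, SPCS3-AS1, SPCS3 and SIAH2-AS1 each lost the call without 1 or more of the libraries. The 5 that share no exon bases with a protein-coding gene were LINC00987, DENND5B-AS1, C2orf27A, ENSG00000259187 and LINC02381. LINC00987 had 24.6, 21.5 and 24.7 CPM on polysomes, against 15.4, 12.6 and 12.7 CPM in total RNA, with a log2 fold change of 0.80 ± 0.14 (SE; adjusted p = 0.00133). It overlaps PTMAP4, a processed pseudogene on the opposite strand that changed by 0.72. LINC02381 had 43.2, 38.4 and 37.5 CPM on polysomes, against 31.7, 28.1 and 31.2 CPM in total RNA, a log2 fold change of 0.39 ± 0.11 (SE; adjusted p = 0.02) that was not called without total RNA replicate 2 or 3 or polysome replicate 1. The other 3 also lost their calls without single libraries.

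Replication-dependent histone mRNAs, which end in a stem-loop and mostly carry no poly(A) tail, were mostly above the median of protein-coding genes. Of 57 tested 28 were higher and 0 lower, with a median log2 fold change of 0.56, against 0.13 and 10.4% higher over all protein-coding genes. With the replicate block 45 were higher, against 23.3% over protein-coding genes, and with 1 library left out 10 to 29. This list was compiled after their values were seen, so its counts are a description. H4C14, a histone H4 gene, had 3651, 2928 and 3065 CPM on polysomes, against 2342, 1537 and 2007 CPM in total RNA, with a log2 fold change of 0.71 ± 0.16 (SE; adjusted p = 0.00664). H2AC14 had 130, 145 and 114 CPM on polysomes, against 88.9, 67.3 and 68.9 CPM in total RNA, a log2 fold change of 0.79 ± 0.16. The total RNA libraries lay below the polysome libraries for H4C14 and H2AC14, and total RNA replicate 1 was the highest of its group. H4C15 had 3656, 2932 and 3070 CPM on polysomes and 2346, 1539 and 2010 CPM in total RNA, close to H4C14. H3C14 and H3C15 averaged 2832 and 2822 CPM on polysomes and 1774 and 1767 CPM in total RNA. Reads of such copies may not be told apart, and each copy counts as a separate member of the list. H2BS1 and ENSG00000274559, near-identical H2B genes whose reads cannot be told apart, changed by 0.79 and 0.80 and lost the call in 5 of the 6 fits without 1 library. H4C1, at 0.72, lost it without total RNA replicate 2 or polysome replicate 1.

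Other mRNAs with a mean log2 CPM over 2 reached similar values. GOLT1B, a Golgi transport protein, had 33.5, 32.7 and 38.3 CPM on polysomes, against 18.4, 23.1 and 21.6 CPM in total RNA, with a log2 fold change of 0.73 ± 0.16 (SE; adjusted p = 0.0071). SNX10, an endosomal sorting nexin, changed by 0.75 ± 0.20 and DYNLT3, a dynein light chain, by 0.69 ± 0.20, and these 2 lost the call without 3 and 5 of the 6 libraries. BEX2 changed by 0.67 ± 0.13, SUB1, a transcription coactivator, by 0.65 ± 0.13, and CENPW, a centromere protein, by 0.66 ± 0.14. BEX2, with 37.9, 34.0 and 35.5 CPM on polysomes and 23.4, 21.5 and 22.6 CPM in total RNA, kept its call whichever library was left out, as did GOLT1B, SUB1 and CENPW. Among genes of 501 to 1000 exonic bases, SF3B5, a small subunit of the splicing factor SF3B, changed by 0.62 ± 0.09 and MRPL41, a protein of the mitochondrial ribosome, by 0.62 ± 0.18, the MRPL41 call being lost without 4 of the 6 libraries.

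Exonic length, the number of bases in the union of a gene's exons, moved with the protein-coding changes. Among the 77 genes of at most 500 bases 24.7% were higher and 6.49% lower, with a median of 0.26, and among 1329 genes of 1001 to 2000 bases 19.6% were higher and 4.82% lower, with a median of 0.24. Among 3701 genes of 4001 to 6000 bases 10.2% were higher and 4.13% lower, with a median of 0.13. Above 12000 bases, 2.91% of 1167 genes were higher and 8.74% lower, with a median of 0.03. The share higher was not in strict order of length, since genes of 501 to 1000 bases had 16.6% higher. Leaving out the histone and mitochondrially encoded genes, the shortest bin had 11.5% of 52 genes higher and a median of 0.22. Across the 11703 protein-coding genes whose mean log2 CPM was at least 2, Spearman's rho between length and log2 fold change was -0.31, and across all 15675 it was -0.15. These are correlations across genes, which are not independent replicates, and length moved with level: the median of mean log2 CPM was 3.12 in the 1001 to 2000 base bin and 5.07 above 12000 bases. Among genes whose mean log2 CPM was at least 2, the same-numbered polysome and total RNA libraries gave median differences of 0.29, 0.41 and 0.34 for the shortest bin and of 0.10, -0.03 and 0.00 for the longest. The part of level in this pattern was not tested.

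**Figure D3:**
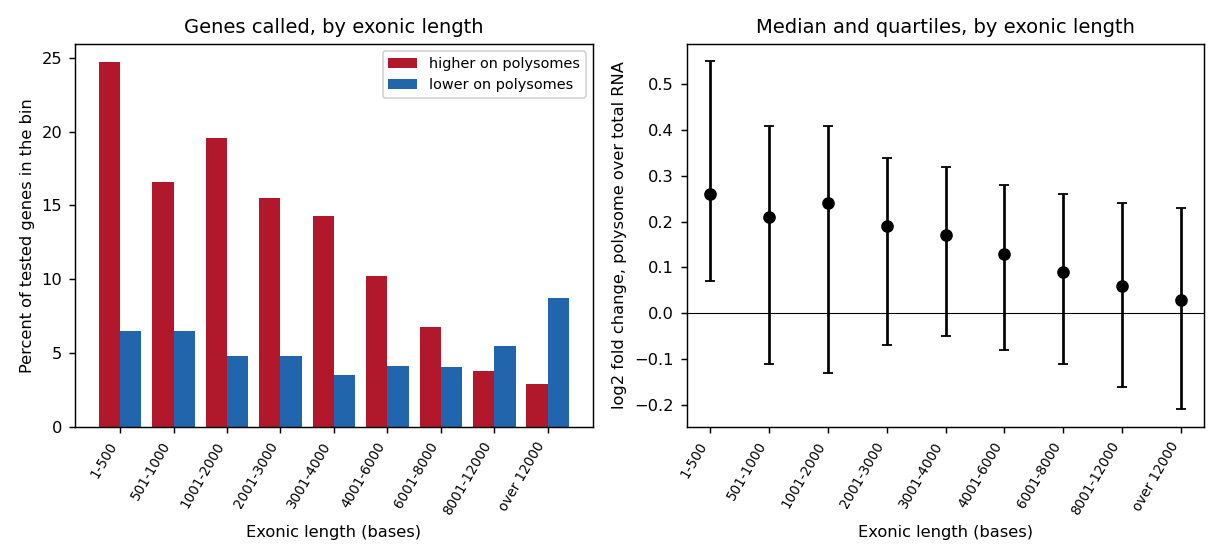
Left, percent of tested protein-coding genes called higher (red) and lower (blue) on polysomes by exonic length; right, median log2 fold change of polysome over total RNA in each bin, with bars for the quartiles. The median is 0.26 at 1 to 500 bases and 0.03 above 12000 bases, and the share called lower is highest above 12000 bases, at 8.74%.

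A list of 50 genes known to encode giant proteins, compiled after values had been seen and given as a description, had 14 lower (28%) and 0 higher, against 4.78% and 10.4% over protein-coding genes, with a median of -0.28 that was 0.06 with library totals and no scaling factors. With the replicate block 22 were lower, against 10.1% over protein-coding genes, and with 1 library left out 12 to 16. MDN1, a giant ATPase of ribosome assembly, averaged 90.0 ± 10.3 CPM on polysomes and 283 ± 47.4 CPM in total RNA (SD, n = 3 each), with a log2 fold change of -1.65 ± 0.16 (SE; adjusted p = 7.42e-06). PRKDC, the DNA-dependent protein kinase of double-strand break repair, had 228, 270 and 259 CPM on polysomes, against 569, 886 and 820 CPM in total RNA, a log2 fold change of -1.59 ± 0.29. DYNC1H1, the heavy chain of cytoplasmic dynein, had 80.8, 104 and 90.8 CPM on polysomes, against 229, 306 and 271 CPM in total RNA, a log2 fold change of -1.55 ± 0.33. For each of these 3 the polysome libraries lay below all total RNA libraries, with total RNA replicate 1 the lowest of its group.

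EPPK1, a plakin of epithelial cells, was lowest of the list at -2.19 ± 0.22, and PLEC, another plakin that links filaments, fell by 1.14 ± 0.13 on the log2 scale. The ubiquitin ligases UBR4, HUWE1 and HERC2 fell by 1.26, 1.18 and 1.11. AHNAK, at -1.24 ± 0.38, and FAT1, at -0.57 ± 0.16, lost the call without several single libraries. Not every giant mRNA was called lower. DST, a plakin of the cytoskeleton, had 47.3, 61.0 and 54.0 CPM on polysomes and 23, 62.4 and 52.7 CPM in total RNA, where replicate 1 stood below the others (log2 fold change 0.23 ± 0.40, not called). LYST, a regulator of lysosome size, had 0.22 ± 0.33, likewise with total RNA replicate 1 lowest, and was not called.

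Some genes of long exonic length were higher. Exonic length joins all annotated exons of a gene, so it is not the length of 1 mRNA. DCUN1D5, NDUFA5 and SLC44A1 each have more than 12000 exonic bases and were higher, by 0.55 ± 0.12, 0.53 ± 0.12 and 0.49 ± 0.11 on the log2 scale. NDUFA5, a small subunit of complex I, has 13738 exonic bases and had 60.7, 56.7 and 63.5 CPM on polysomes, against 41.1, 44.4 and 40.0 CPM in total RNA. In the other direction MYH9, the heavy chain of nonmuscle myosin IIA with 8909 exonic bases, had 124, 109 and 106 CPM on polysomes, against 395, 404 and 389 CPM in total RNA, a log2 fold change of -1.81 ± 0.22 (SE; adjusted p = 6.31e-05). RRBP1, the ribosome-binding protein of the endoplasmic reticulum, fell by 1.64 ± 0.20, and SRRM2, a nuclear speckle scaffold, by 1.16 ± 0.12. PABPC1L, a poly(A)-binding protein of oocytes, had 2.52, 3.59 and 2.35 CPM on polysomes and 12, 12.7 and 11.9 CPM in total RNA. IDS, a lysosomal sulfatase, fell by 1.72 ± 0.29, and another protein-coding gene annotated across it on the same strand may share its reads.

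**Figure D4:**
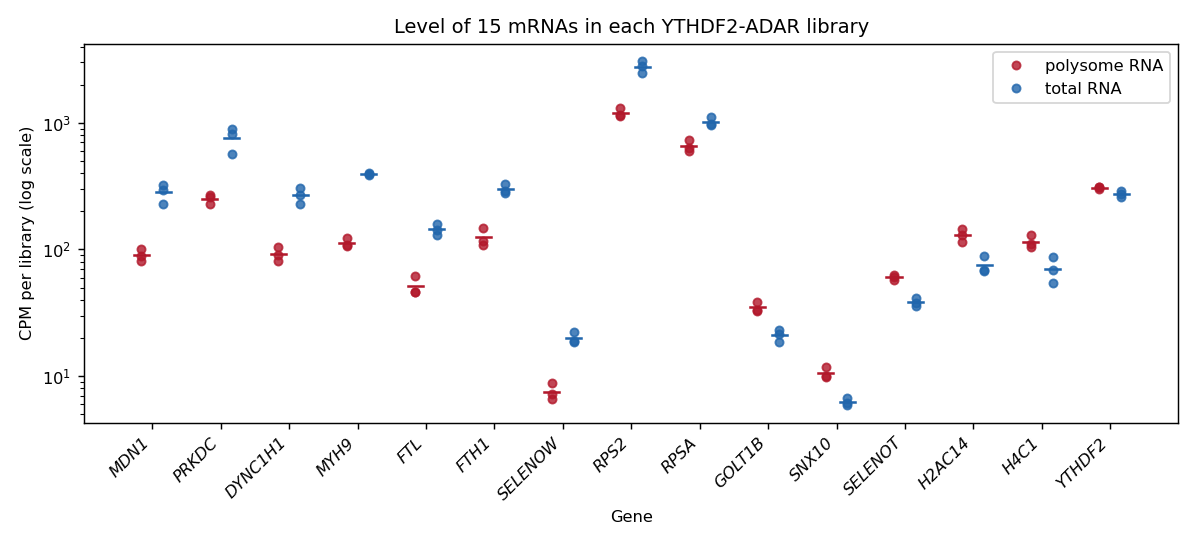
CPM of 15 mRNAs in each library (log scale), with points for polysome RNA (red, left) and total RNA (blue, right) and lines at the means. MDN1, PRKDC, DYNC1H1, MYH9, FTL, FTH1, SELENOW, RPS2 and RPSA lie lower on polysomes, GOLT1B, SNX10, SELENOT, H2AC14 and H4C1 higher, and YTHDF2 near the same level in both groups.

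Messenger RNAs with a 5′ terminal oligopyrimidine (TOP) tract, a C at the first base followed by pyrimidines, encode ribosomal proteins and elongation factors and are translated when mTOR is active. Starts were read from RefSeq promoter sequences of build GRCh38.p14, and they are shown for 3 ribosomal proteins of low log2 fold change and 2 TOP mRNAs of other function, which share this start, and for RPS29, which does not. In each line the first 15 bases lie before the annotated start and the last 15 after it, with the pyrimidine run from a C start in capitals.
RPSA: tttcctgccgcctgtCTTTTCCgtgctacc
RPS27: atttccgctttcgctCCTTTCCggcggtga
RPL41: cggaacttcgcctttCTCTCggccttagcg
EEF1A1: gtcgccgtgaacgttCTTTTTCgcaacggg
TPT1: agcggctgagtcggcCTTTTCCgcccgctc
RPS29: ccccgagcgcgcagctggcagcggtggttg
The windows lie at chr3:39406705-39406734 (RPSA), chr1:153990747-153990776 (RPS27), chr12:56116618-56116647 (RPL41), all on the plus strand, and at chr6:73521018-73521047 (EEF1A1), chr13:45341169-45341198 (TPT1) and chr14:49598696-49598725 (RPS29) on the minus strand. RPS29 has no such run at this annotated start.

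The mRNAs of the ribosomal proteins lay close to the middle of all genes. Of 47 large subunit genes 0 were called by edgeR, 3 had an unadjusted p under 0.05, and DESeq2 called 0. Of 32 small subunit genes 2 were lower and 0 higher. Their median log2 fold changes were 0.10 and 0.11, against 0.13 over all protein-coding genes, of which 10.4% were higher and 4.78% lower. RPS2 had 1318, 1143 and 1130 CPM on polysomes, against 3067, 2463 and 2785 CPM in total RNA, with a log2 fold change of -1.21 ± 0.19 (SE; adjusted p = 0.000678). RPSA, the laminin receptor protein of the small subunit, had 735, 630 and 594 CPM on polysomes, against 1114, 958 and 977 CPM in total RNA, a log2 fold change of -0.64 ± 0.16 (SE; adjusted p = 0.0141) that lost its call without total RNA replicate 1 or polysome replicates 2 or 3. The RPSA call was also lost with library totals and no scaling factors. RPL41 and RPS27 had log2 fold changes of -0.66 ± 0.26 and -0.64 ± 0.23 and were not called. Ribosomal protein genes have many processed pseudogenes, and how the counting treated reads that match several of them is not given, so these values are uncertain.

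Of 627 protein-coding genes with a C start and at least 5 pyrimidines, 70 were higher and 31 lower with a median of 0.14, and of 11492 with other starts 1223 were higher and 505 lower with a median of 0.13. Such a start was found in 4.04% of 27305 promoter entries, and it is a description of letters, not a tested element. Among ribosomal protein genes the medians were 0.07 for 43 with such a start and 0.15 for 20 with another. Of 17 elongation factors and other TOP mRNAs 1 was higher, NPM1, a nucleolar chaperone, with 1896, 1798 and 1964 CPM on polysomes, against 1517, 1460 and 1431 CPM in total RNA (log2 fold change 0.36 ± 0.11, SE; adjusted p = 0.0421, lost without any 1 of the 6 libraries). EEF1A1, the most used elongation factor, had 4544, 5109 and 4819 CPM on polysomes and 4664, 4544 and 4306 CPM in total RNA, so its groups overlapped. PABPC1 had -0.39 ± 0.17 and TPT1 -0.36 ± 0.16, and neither was called, though PABPC1 was lower with the replicate block.

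Iron-responsive elements are stem-loops that bind IRP proteins when iron is scarce: one near the 5′ end blocks initiation on ferritin mRNA, and those in the tail of TFRC, the transferrin receptor, stabilise it. Of 11 mRNAs with such elements, 2 were lower (18.2%), both ferritins, and 1 was higher (9.09%), with a median of 0.02. Over protein-coding genes 4.78% were lower and 10.4% higher, with a median of 0.13. FTL, the ferritin light chain, had 61.6, 46.0 and 46.2 CPM on polysomes, against 159, 131 and 142 CPM in total RNA, with a log2 fold change of -1.49 ± 0.18 (SE; adjusted p = 6.41e-05). FTH1, the heavy chain, had 147, 109 and 117 CPM on polysomes, against 326, 280 and 289 CPM in total RNA, a log2 fold change of -1.26 ± 0.15 (SE; adjusted p = 5.57e-05). Each polysome library lay below every total RNA library for both chains, and both calls held whichever library was left out. The FTL window is shown because it holds the loop letters of the element, and the match is given with the loop CAGTGN in capitals, whose first base is base 39 from the annotated start.
FTL: gtctgtctcttgcttcaaCAGTGTttggac
It lies at chr19:48965329-48965358 on the plus strand of GRCh38.p14, from RefSeq. The letters CAGTGN were found on the transcript strand in the first 50 bases of 6.36% of 35116 promoter entries, and in 2 of the 9 iron list genes that have an entry, so a match alone marks no element. The other members did not follow the ferritins: TFRC had 191, 203 and 220 CPM on polysomes and 146, 242 and 219 CPM in total RNA (log2 fold change 0.02 ± 0.36), SLC40A1, the iron exporter, had -0.27 ± 0.21, and SDHB, an iron-sulfur subunit of complex II, was higher by 0.36 ± 0.08 (adjusted p = 0.0072). Ferritin genes have processed pseudogenes, and how reads that match several copies were counted is not stated.

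Selenoproteins incorporate selenocysteine at a UGA codon through an element in the tail of their mRNA. Of 23 tested 5 were higher and 1 lower, with a median of 0.29, against 10.4% higher, 4.78% lower and a median of 0.13 over protein-coding genes. SELENOT, an oxidoreductase of the endoplasmic reticulum, had 62.8, 57.7 and 60.3 CPM on polysomes, against 41.5, 37.9 and 35.8 CPM in total RNA, with a log2 fold change of 0.65 ± 0.12 (SE; adjusted p = 0.00216). SEPHS2, which makes the selenium donor, changed by 0.55 ± 0.13, SELENOK by 0.52 ± 0.09, SELENOF by 0.51 ± 0.08, and TXNRD1, thioredoxin reductase, by 0.39 ± 0.10. TXNRD1 was not called without total RNA replicate 3 or polysome replicate 3, and the other 4 were called whichever library was left out. SELENOW went the other way with 8.75, 7.23 and 6.56 CPM on polysomes, against 22.2, 19 and 18.5 CPM in total RNA, a log2 fold change of -1.40 ± 0.28 (SE; adjusted p = 0.00322) that held whichever library was left out. The peroxidases GPX4 and GPX1 had 0.26 ± 0.14 and 0.17 ± 0.19 and were not called. With the replicate block 10 were higher and 2 lower, against 23.3% and 10.1% over protein-coding genes. With 1 library left out 4 to 6 were higher.

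Polyamine synthesis is controlled by translation: antizymes need a frameshift, and ODC1, the ornithine decarboxylase, and AMD1 have upstream reading frames. Of 14 tested 4 were higher (28.6%) and 0 lower, with a median of 0.29, against 10.4% higher, 4.78% lower and a median of 0.13 over protein-coding genes. SMS, spermine synthase, had 142, 133 and 143 CPM on polysomes, against 106, 97.6 and 97.8 CPM in total RNA, with a log2 fold change of 0.47 ± 0.08 (SE; adjusted p = 0.00129). The antizymes OAZ1 and OAZ2 changed by 0.42 ± 0.12 and 0.30 ± 0.10, and AZIN1, the antizyme inhibitor, by 0.42 ± 0.11. SMS kept its call without each library, and the other 3 lost theirs without 3 to 5 of the 6, so the count ran from 1 to 3. ODC1 and AMD1 had 0.28 ± 0.21 and 0.37 ± 0.16 and were called with the replicate block.

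Stress-response mRNAs with upstream reading frames are poorly translated in unstressed cells. Of 15 tested 1 was higher (6.67%) and 0 lower, with a median of 0.19. Over protein-coding genes 10.4% were higher and 4.78% lower, with a median of 0.13. With the replicate block 5 of the 15 were higher and 1 lower, against 23.3% and 10.1% over protein-coding genes. ATF4, the transcription factor of the integrated stress response, had 443, 438 and 428 CPM on polysomes and 486, 445 and 483 CPM in total RNA (log2 fold change -0.11 ± 0.21; adjusted p = 0.784). DDIT3 had -0.12 ± 0.38. PPP1R15A, a subunit of the phosphatase that reverses the response, had 13.3, 13.5 and 14.6 CPM on polysomes and 16.4, 17.8 and 16.6 CPM in total RNA, with a log2 fold change of -0.30 ± 0.20 that was called lower with the replicate block. PPP1R15B, the constitutive subunit, was higher by 0.28 ± 0.08 (adjusted p = 0.0299), a call lost without any 1 library.

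Among import and other small proteins of the mitochondrial membranes, 7 of 23 tested (30.4%) were higher and 0 lower, with a median of 0.32, against 10.4% and 0.13 over protein-coding genes, and all 23 lay above the median of all genes. With the replicate block 15 were higher, against 23.3% over protein-coding genes, and with 1 library left out 3 to 6. TIMM17B, of the inner membrane translocase, had 107, 97.1 and 92.8 CPM on polysomes, against 72.7, 60.2 and 63.3 CPM in total RNA, with a log2 fold change of 0.60 ± 0.11 (SE; adjusted p = 0.0024). CHCHD2 changed by 0.51 ± 0.10 and TOMM20, a receptor of the outer membrane, by 0.44 ± 0.09. TIMM10, a small chaperone between the membranes, had 0.59 ± 0.22 and was called with the replicate block.

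Of 22 DNA replication licensing genes 6 were higher (27.3%) and 0 lower, with a median of 0.20, against 10.4% higher, 4.78% lower and a median of 0.13 over protein-coding genes. PCNA, the sliding clamp, had 158, 156 and 160 CPM on polysomes, against 120, 107 and 107 CPM in total RNA, with a log2 fold change of 0.50 ± 0.09 (SE; adjusted p = 0.00203), and GMNN, the licensing inhibitor geminin, changed by 0.53 ± 0.15. The helicase subunits MCM2 and MCM5 had -0.12 ± 0.14 and -0.12 ± 0.10 and were not called. Of 23 mitotic kinase and checkpoint genes 6 were higher (26.1%) and 1 lower, with a median of 0.20. MAD2L1, a spindle checkpoint protein, had 134, 130 and 138 CPM on polysomes, against 88.6, 99.2 and 85.4 CPM in total RNA, a log2 fold change of 0.56 ± 0.11 (SE; adjusted p = 0.00285). CDK1 changed by 0.43 ± 0.12, and INCENP, a scaffold of the Aurora B complex, was lower at -0.46 ± 0.11. The calls of GMNN and CDK1 were lost without 5 and 4 of the 6 libraries, and that of INCENP without polysome replicate 2 or 3. INCENP also lost its call with library totals and no scaling factors. With 1 library left out, 3 to 5 licensing genes and 4 to 5 mitotic genes were higher and 0 to 1 mitotic genes lower.

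The machinery through which YTHDF2 shortens mRNA was measured on 2 lists. Of 33 deadenylation and decapping factors 5 were higher (15.2%) and 0 lower, with a median of 0.16, which is near the 10.4% and 0.13 over protein-coding genes. CNOT7 and CNOT8, deadenylase subunits of CCR4-NOT, changed by 0.41 ± 0.12 and 0.37 ± 0.11, and CNOT9 by 0.35 ± 0.08. CNOT9 had 121, 118 and 122 CPM on polysomes, against 97.3, 94.3 and 90.9 CPM in total RNA. LSM2 and LSM4, of the ring that binds shortened tails, changed by 0.48 ± 0.11 and 0.47 ± 0.09. DCP2, the decapping enzyme, had 222, 231 and 244 CPM on polysomes and 85.9, 179 and 155 CPM in total RNA, where replicate 1 was lowest, and was not called (log2 fold change 0.73 ± 0.31). Of 22 genes of nonsense-mediated decay and of the RNase P/MRP cleavage arm 3 were higher and 1 lower. UPF1, the helicase of nonsense-mediated decay, averaged 117 ± 25.4 CPM on polysomes and 166 ± 5.75 CPM in total RNA (SD, n = 3 each), a log2 fold change of -0.51 ± 0.16 (SE; adjusted p = 0.0385), and RIDA, the adaptor between YTHDF2 and RNase P/MRP, was higher by 0.51 ± 0.16. The RNase P/MRP proteins RPP40 and POP5 changed by 0.48 ± 0.14 and 0.39 ± 0.12. Only CNOT9 and LSM4 of these calls held whichever library was left out, so counts fell to 2 to 4 on the first list and to 0 to 3 higher on the second. UPF1 also lost its call with library totals and no scaling factors.

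Of 22 mRNAs known for introns that are detained in the nucleus 6 were lower (27.3%) and 0 higher, against 4.78% and 10.4% over protein-coding genes, with a median of -0.15 that was 0.20 with library totals and no scaling factors. CCNL2, a cyclin of splicing regulation, had 32.6, 35.6 and 29.0 CPM on polysomes, against 55.3, 61.3 and 56.7 CPM in total RNA, with a log2 fold change of -0.84 ± 0.17 (SE; adjusted p = 0.00438). SON, a speckle protein whose mRNA is a known YTHDF2 target, had 354, 330 and 319 CPM on polysomes, against 451, 491 and 477 CPM in total RNA, a log2 fold change of -0.50 ± 0.13 that was not called without total RNA replicate 2 or 3 or polysome replicate 3. OGT, the O-GlcNAc transferase, had -0.46 ± 0.12 and lost the call without 4 of the 6 libraries. The splicing kinase CLK3 was lower at -0.31 ± 0.09, or 0.06 and not called with library totals and no scaling factors, while CLK1 and CLK4 had 0.16 ± 0.14 and 0.14 ± 0.18 and were not called. With 1 library left out 1 to 4 were lower, and CCNL2 kept its call each time. With library totals and no scaling factors CCNL2, SON and OGT lost their calls. Of 14 SR splicing factors 0 were called by edgeR (2 at an unadjusted p under 0.05) and 0 by DESeq2, with a median of 0.28. With the replicate block 10 of the 14 were higher, against 23.3% over protein-coding genes. SRSF3 was among the 10, at 0.44 ± 0.24 without the block.

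Of 27 histone lysine methyltransferases 6 were lower (22.2%) and 0 higher, with a median of -0.11 that was 0.25 with library totals and no scaling factors. Over protein-coding genes 4.78% were lower and 10.4% higher. EZH1 had 14.8, 14 and 13.2 CPM on polysomes, against 25.5, 25.5 and 24.8 CPM in total RNA, with a log2 fold change of -0.85 ± 0.18 (SE; adjusted p = 0.00417). EZH2, the other catalytic subunit of Polycomb complex PRC2, had 82.3, 85.0 and 80.4 CPM on polysomes and 78.6, 82.7 and 74.4 CPM in total RNA (log2 fold change 0.07 ± 0.08). KMT2D, a giant H3K4 methyltransferase, had 242, 265 and 259 CPM on polysomes, against 479, 439 and 462 CPM in total RNA, a log2 fold change of -0.85 ± 0.12, and KMT2B fell by 0.55 ± 0.09. In each fit without 1 library 6 genes of this list were lower. KMT2B lost its call with library totals and no scaling factors.

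**Figure D5:**
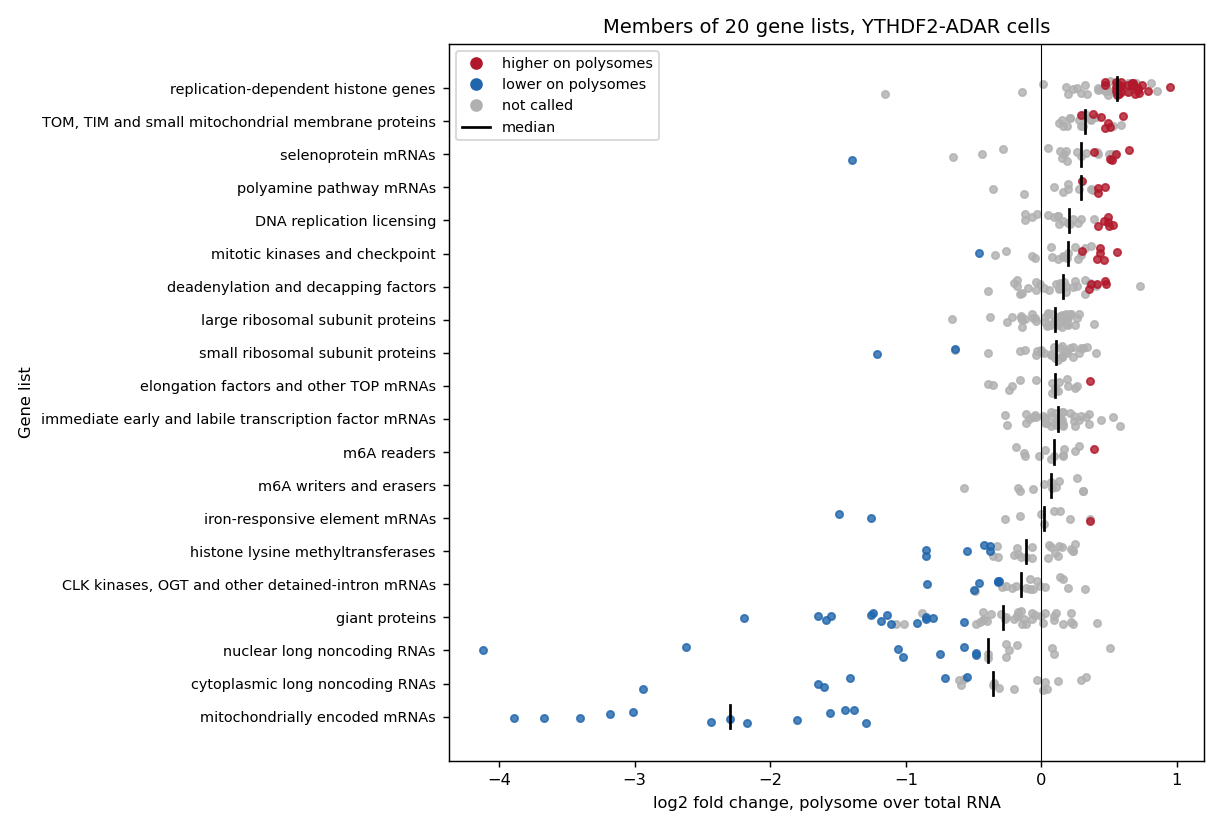
Log2 fold change of polysome over total RNA for the tested members of 20 gene lists, with called members in red (higher) and blue (lower), others in grey and a bar at the median. Histone mRNAs have the highest median at 0.56 and mitochondrially encoded mRNAs the lowest at -2.30; with library totals and no scaling factors all values move up, and the medians of the methyltransferases, detained-intron mRNAs, giant proteins and cytoplasmic long noncoding RNAs change sign.

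YTHDF2 itself, whose counts pool the endogenous mRNA and the fusion, had 311, 302 and 312 CPM on polysomes and 276, 288 and 260 CPM in total RNA, with a log2 fold change of 0.16 ± 0.13 (SE; adjusted p = 0.458). YTHDF1 and YTHDF3 had 0.17 ± 0.15 and 0.25 ± 0.12, and the deaminases ADAR and ADARB1 had -0.03 ± 0.09 and -0.24 ± 0.13, with none called. With library totals and no scaling factors ADAR had 0.33 and was called higher. Of 13 m6A readers 1 was higher (7.69%) and 0 lower, against 10.4% and 4.78% over protein-coding genes. It was HNRNPC, a nuclear protein that binds structures opened by m6A, at 0.39 ± 0.12 (adjusted p = 0.0429 in edgeR's test, lost without any 1 library). IGF2BP1 had -0.12 ± 0.12. Of 12 m6A writers and erasers 0 were called by edgeR (2 at an unadjusted p under 0.05) and 0 by DESeq2, while the replicate block called WTAP, a subunit of the methyltransferase complex, and ALKBH5, a demethylase, higher (0.31 ± 0.13 and 0.31 ± 0.10 without the block). METTL3, the methyltransferase, had 45.5, 55.0 and 48.5 CPM on polysomes and 46.7, 46.3 and 47.9 CPM in total RNA.

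The authors' deposited editing table lists 4547 genes with YTHDF2-ADAR sites, and 4511 protein-coding genes tested here carry a symbol in it. Of these 580 were higher on polysomes (12.9%) and 232 lower (5.14%), with a median of 0.15, and of 11164 genes outside it 1053 were higher (9.43%) and 517 lower (4.63%), with a median of 0.12. Where the mean log2 CPM was 5 or more, the order turned: 14.9% of 2865 listed genes were higher and 4.71% lower, against 21.1% higher and 3.05% lower of 3242 others. Among the 6 genes with most sites in the authors' deposited table, SPTAN1, a spectrin with 92 sites, was lower by 0.75 ± 0.12, with 90.4, 102 and 93.5 CPM on polysomes, against 175, 158 and 147 CPM in total RNA. CHD3, a chromatin remodeller, and SPTBN1, another spectrin, had -0.44 ± 0.11 and -0.42 ± 0.10 and were lower, though each lost the call without polysome replicate 3. Both also lost it with library totals and no scaling factors. ATP2B1, ALYREF and NCKAP1 had 0.36 ± 0.28, 0.25 ± 0.24 and 0.29 ± 0.22 and were not called.

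The polysome change of the YTHDF2-ADAR line was set against that of the YTHDF1-ADAR and YTHDF3-ADAR lines, which were prepared the same way, by the difference of the changes. No gene passed an adjusted p of 0.05 in either difference in edgeR: 166 genes (0.619%) had an unadjusted p under 0.05 against YTHDF1-ADAR and 2.99% against YTHDF3-ADAR, and DESeq2 called 0 and 9. Of the 47 large and 32 small subunit ribosomal protein genes, 43 and 29 had an unadjusted p under 0.05 for YTHDF2-ADAR minus YTHDF3-ADAR, with median differences of 0.68 and 0.75 on the log2 scale. TPT1 had a difference of 0.82 ± 0.22 and RPSA one of 0.78 ± 0.23 (SE; adjusted p = 1 for both), and MT-RNR1 had one of -3.03 ± 0.68 (unadjusted p = 0.000384 in edgeR's test). Against YTHDF1-ADAR the medians were -0.04 and -0.02, with 0 genes of either list at an unadjusted p under 0.05. MDN1, FTL and SELENOW had differences from YTHDF1-ADAR of -0.05 ± 0.22, -0.07 ± 0.25 and -0.02 ± 0.39, and from YTHDF3-ADAR of -0.28 ± 0.22, 0.51 ± 0.25 and 0.34 ± 0.39. Spearman's rho between exonic length and log2 fold change over genes whose mean log2 CPM was at least 2 was -0.31 in the YTHDF2-ADAR line, -0.24 in the YTHDF1-ADAR line and -0.08 in the YTHDF3-ADAR line, given as a description.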

How the data were processed

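RNA was sequenced from rRNA-depleted, directional libraries made from 150 ng of RNA, per the labels' protocols. The deposited counts are whole reads per gene, and the submitters' processing notes name STAR 2.7.7, featureCounts 2.0.1, DESeq2 and GRCh38; the sources used here give no strand setting or annotation. Symbols and classes came from the authors' deposited table for 20542 tested genes and from a name table for 510.

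All 18 libraries were fitted with 6 group means in edgeR 4.0.16 (R 4.3.3, limma 3.58.1; TMM factors, filterByExpr with a minimum count of 10, robust quasi-likelihood), and the contrast of YTHDF2-ADAR polysome minus total RNA and its differences from the other lines were tested, with Benjamini-Hochberg adjustment over all genes. SE is the size of the log2 fold change over the square root of F. The 1 row that names no human gene held 3 counts in the 6 libraries and was left out. Alternatives were a replicate block, other scalings, other filters, DESeq2 1.42.0, the 6 libraries alone and each library left out. Same-numbered polysome and total RNA libraries deviated together for replicates 1 and 2, with correlations of 0.38 and 0.61. Polysome replicate 3 had 0.20 with its own number and 0.21 with total RNA replicate 1, so its pairing was not settled. Reported calls and SEs came from the fit without the replicate block. Genes higher and lower numbered 4148 and 4010 with the block, against 1799 and 2424, so a gene given as not called may be called there. Totals of 43291966 to 67549159 counts per library set the precision of low genes.

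Lists and members were chosen with earlier results of these data known, and the giant protein and histone lists after values were seen. The rule for named genes took the 15 highest and lowest protein-coding genes whose mean log2 CPM was at least 2, the 8 highest and lowest long noncoding RNAs, up to 5 of each list at each end, the fusion genes and the 6 genes with most editing sites, and the text names some of these and others chosen after their values were seen. Bins of protein length were planned and not run, and exonic length was used in their place. The calculations were tested on simulated data.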

Additional observations from a re-analysis of the deposited data

How the results depend on the processing

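Among settings other than leaving out a library, genes higher numbered 4148 with the replicate block, 9093 with no scaling factors, 997 with no filter, 1108 with a minimum count of 50 and 3766 in the 6 libraries alone, against 1799 reported. Genes lower numbered 4010, 1364 and 4088 with the block, with no scaling factors and in the 6 libraries alone, against 2424. Protein-coding genes higher numbered 3652, 7591, 908, 996 and 3362 in the order first given, against 1633, and those lower 1589, 275 and 1863, against 749. Of the genes reported, 1795 higher and 2406 lower were also called with the block, and 1727 and 2369 by DESeq2. Without single libraries, genes higher ranged from 658 to 1401, genes lower from 1511 to 1877, protein-coding genes higher from 597 to 1274 and protein-coding genes lower from 451 to 557. The long noncoding share of counts differed by -9.79 percentage points (polysome minus total RNA), and by 0.72 without the 5 most abundant entries, an alternative chosen after seeing the data. DESeq2 called 9 genes for the difference from YTHDF3-ADAR, against 0. With no scaling factors CLK3 had 0.06 and ADAR 0.33; the cause was not tested beyond the shift of the median of all genes to 0.40. The lower calls of RMRP, MT-TL2, MALAT1, AHNAK, FAT1, RPSA, INCENP, UPF1, CCNL2, SON, OGT, KMT2B, CHD3 and SPTBN1 were also lost with no scaling factors. Of 118 named genes called, 73 were called whichever library was left out and 45 were lost at least once. The block called 13 more of the 168 genes recomputed and lost 0. Small changes in genes of few counts are limited by depth, and 1 total RNA library stands apart from its group.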

Other observations

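Several gene groups were near the background of 10.4% higher and 4.78% lower among protein-coding genes or below it. With the replicate block that background was 23.3% higher and 10.1% lower. Of 17 tubulin genes 3 were higher and 1 lower, with a median of 0.16. With 1 library left out 0 to 1 of the tubulin genes were higher and 0 to 1 lower. TUBA1A, an alpha tubulin of dividing and neuronal cells, had 124, 160 and 161 CPM on polysomes, against 124, 106 and 114 CPM in total RNA (log2 fold change 0.37 ± 0.11, SE; adjusted p = 0.0239 in edgeR's test). Of 26 genes of sterol synthesis and uptake 2 were higher and 0 lower, with a median of 0.23, and 10 were higher and 1 lower with the replicate block. IDI1, an isomerase of the isoprenoid pathway, had 74.3, 84.0 and 88.7 CPM on polysomes, against 56.9, 64.3 and 58.8 CPM in total RNA, with a log2 fold change of 0.46 ± 0.14. With 1 library left out 0 to 2 of the sterol genes were higher.

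Of 38 mRNAs of immediate early and labile transcription factors 0 were called by edgeR (2 at an unadjusted p under 0.05) and 0 by DESeq2. Their median was 0.13. With the replicate block 9 of the 38 were higher, against 23.3% of all protein-coding genes. ID1 and ID3 were among the 9, with log2 fold changes of 0.58 and 0.53 without the block. Of 20 cytosolic aminoacyl-tRNA synthetases 0 were called by edgeR (1 at an unadjusted p under 0.05) and 0 by DESeq2, with a median of 0.15. All 8 subunits of the TRiC chaperonin lay above the median of all genes, with a median of 0.24, though edgeR called 0 of them, or 1 at an unadjusted p under 0.05, and 1 was called by DESeq2. Of 27 hnRNP genes 2 were higher and 1 lower, and with 1 library left out 0 were higher.

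Zinc finger genes of chromosome 19, where they lie in clusters, had 2 of 212 higher and 1 lower, with a median of 0.15, and those elsewhere 6 of 246 higher and 10 lower, with a median of 0.11. ZNF124 had 7.82, 7.12 and 6.19 CPM on polysomes, against 14.9, 13.3 and 13.6 CPM in total RNA, with a log2 fold change of -0.98 ± 0.13, and ZNF692 fell by 0.76 ± 0.10. ZNF678 had 52.4, 56.8 and 60.4 CPM on polysomes and 21.5, 45.7 and 41.1 CPM in total RNA, where replicate 1 was lowest, and was not called (adjusted p = 0.224). Over all genes tested, of every class, 6.71% were higher and 9.04% lower. Among genes annotated as processed pseudogenes 42 of 2141 were higher (1.96%) and 157 lower (7.33%), with a median of -0.02. Among unprocessed ones 6 of 392 were higher (1.53%) and 67 lower (17.1%). Of 360 genes annotated as miRNAs 62 were lower (17.2%) and 7 higher (1.94%).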
